A study of Mus musculus with 8 samples.

Results

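The glandular kallikreins are a cluster of closely related serine protease genes, and 7 of them are described here: Klk1, Klk1b1, Klk1b11, Klk1b16, Klk1b21, Klk1b22 and Klk1b24. They are 7 of the 15 rows of the Klk1 family and of the 24469 genes in the count table. Klk1b22 was selected on its measured counts in the knockout libraries, and the paralogs set beside it were chosen by how their counts followed exocrine RNA, so their differences between genotypes are given as descriptions without a test. RNA was sequenced from hand-picked pancreatic islets of mice aged 8 weeks. There were 4 libraries from wild-type C57BL/6 mice and 4 from mice on that background without the snoRNAs U32a, U33, U34 and U35a, which lie in introns of Rpl13a. Each library came from a different mouse. The comparison asked which islet transcripts differ when these snoRNAs are missing.

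Tissue kallikrein, the product of Klk1, is a secreted protease of glands such as the salivary glands, the kidney and the exocrine pancreas. It cuts kininogen to release kinins, peptides that act on bradykinin receptors, lower blood pressure and widen vessels. In rodents the family expanded into a tandem array, and several copies are best known from the mouse submandibular gland, where their products bind or process growth factors. Klk1b22 encodes the protein once called epidermal growth factor binding protein type A. Klk1b16 encodes gamma-renin.

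The members resemble each other closely in sequence. In the GENCODE M21 transcripts of GRCm38 the coding sequence of Klk1b22 has 777 bases and that of Klk1 has 783, each in 5 coding exons, and both genes lie on the plus strand of chromosome 7. Klk1b22 is 84.4% identical to Klk1 over the aligned coding sequence, with 114 differing bases, and 88.1% identical to Klk1b21, its closest relative. Of the ungapped 90-base stretches within a single coding exon, the one that differs most between Klk1b22 and Klk1 lies in the last coding exon. This stretch is shown for that difference, and it was not chosen to separate Klk1b22 from Klk1b21. It is at chr7:44116783-44116872 in Klk1b22, chr7:44229476-44229565 in Klk1 and chr7:44106441-44106530 in Klk1b21 (GRCm38, plus strand). Capitals mark bases that differ from Klk1b22, of which Klk1 has 23 and Klk1b21 has 5. Those of Klk1b21 all lie toward the start of the stretch, and the rest is identical to Klk1b22.
Klk1b22: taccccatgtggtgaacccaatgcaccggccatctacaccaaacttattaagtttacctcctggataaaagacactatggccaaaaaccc
Klk1: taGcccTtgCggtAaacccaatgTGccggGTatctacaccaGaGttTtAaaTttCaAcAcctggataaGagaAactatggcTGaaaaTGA
Klk1b21: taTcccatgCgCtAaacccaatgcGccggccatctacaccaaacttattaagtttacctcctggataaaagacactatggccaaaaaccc

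The transcripts differ in how much of their sequence is their own. Of all 50-base words in the Klk1b22 transcript, 86.7% occur in no transcript of another gene, and 0.124% occur in Klk1. With words of 100 bases every word of Klk1b22 was its own, and with words of 36 bases the share was 66.0%. The read length is not given in the sources used here. For 50-base words the other members ranged from 66.1% for Klk1b24 and 70.9% for Klk1b21, which share 20.4 and 20.6% of their words with each other, to 89.9% for Klk1b16. Of 36 deposited values above 0 among the members, 34 were more than 0.01 from a whole number, whereas all 21 values above 0 of the 13 kallikrein rows outside the Klk1 family were whole within 0.01. What made values fractional was not tested, and the low counts of these closely related copies are uncertain because reads could have been split between them. Nor can reads of a gene and of an overlapping antisense gene be told apart, since strandedness is not stated.

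The bases upstream of the start sites are also alike, and are shown for Klk1b22 and Klk1 because their RNA levels ran apart. RefSeq promoter entries (GRCm38.p6) matched all 7 members by symbol. Over the 210 bases in which the entries of Klk1b22 and Klk1 overlap when aligned, they are 80.5% identical, and the other members were 78.3 to 83.4% identical to Klk1b22. The 250 bases before each start site are at chr7:44112423-44112672 for Klk1b22 and chr7:44225110-44225359 for Klk1, both on the plus strand. Capitals mark CANNTG, the E-box motif, which reads alike on both strands and occurs at least once in 72.3% of all 32851 promoter entries of 300 bases. Each of these sequences holds 2 matches. The windows were placed by the start sites and not by the alignment. The match CAGGTG starts at base 74 of the Klk1b22 window and at base 164 of the Klk1 window. Matches at the same distance from the start site are thus not at aligned places, and the motif counts compare windows that only partly align. The entries of Klk1b22 and Klk1 held no match on either strand to TATAAA (in 13.6% of all entries), TGTTCT (in 19.0%), the core of steroid receptor elements, or TTTCCC (in 25.2%), which accompanies an E-box in sites of the acinar factor PTF1. None of these motifs contains another, and a missing match says only that these letters are not in this window.
Klk1b22: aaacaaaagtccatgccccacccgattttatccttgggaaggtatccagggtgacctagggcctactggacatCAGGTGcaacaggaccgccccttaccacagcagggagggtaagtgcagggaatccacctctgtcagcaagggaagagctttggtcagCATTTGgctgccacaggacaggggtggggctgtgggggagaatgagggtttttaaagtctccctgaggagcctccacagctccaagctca
Klk1: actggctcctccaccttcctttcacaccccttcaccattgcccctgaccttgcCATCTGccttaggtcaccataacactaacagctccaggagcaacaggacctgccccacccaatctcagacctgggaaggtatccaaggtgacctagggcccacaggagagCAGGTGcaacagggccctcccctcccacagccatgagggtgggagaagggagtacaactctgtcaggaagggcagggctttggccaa

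Between 21235196 and 41148318 estimated counts per library were assigned to genes. As a check of the labels, the targeted snoRNA U32a (Snord32a) was counted 5, 1, 1 and 2 times in the 4 wild-type libraries and never in a knockout library, where a count of 0 still allows up to 3 counts. Exocrine RNA differed widely between preparations: 36 acinar genes took 26.1, 2.03, 14.3 and 4.93% of assigned counts in wild-type libraries 1 to 4, and 21.9, 5.28, 27.5 and 17.5% in knockout libraries 1 to 4. Knockout replicate 2 stood apart with 0.726% of its counts on 11 liver genes, against at most 0.000977% in any other library. By Xist and the Y-linked gene Ddx3y, 1 wild-type library (replicate 4) and 2 knockout libraries (replicates 1 and 4) came from females. The islet hormone genes summed to 137118 to 186428 CPM in wild-type islets against 110203 to 136459 CPM in knockout islets. The sum rests on the most abundant of them, and 3 of the 6 genes had a higher mean in knockout. These summed ranges did not overlap, as was so for 8.35% of all genes tested, and the difference was not tested.

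Klk1b22 RNA was present in every knockout library and almost absent from wild type. Its estimated counts were 1.33, 1.12, 0 and 0 in wild-type libraries 1 to 4, and 55.7, 94.1, 85.0 and 138 in knockout replicates 1 to 4. Scaled to CPM (counts scaled to a TMM-normalized library size of 1000000), the knockout levels were 3.28, 3.07, 3.75 and 4.44, and the wild-type levels were 0.0433, 0.0337, 0 and 0. The groups did not overlap, and the knockout libraries lay close together. The mean was 3.63 ± 0.608 CPM in knockout and 0.0192 ± 0.0226 CPM in wild type (SD, n = 4 each), a difference of 3.62 CPM. A count of 0 allows up to 3 counts, which is 0.104 CPM in wild-type replicate 3 and 0.0840 CPM in wild-type replicate 4. That limit covers counting error only, since amplified reads are not independent molecules.

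Among all 24469 genes, Klk1b22 was the only one with at least 50 counts in each knockout library and at most 2 in each wild-type library, and it was still the only one when 10 counts were enough. In the opposite direction 0 genes met either rule. These limits were set after its values were seen, and they describe how the gene was chosen. For scale, all 4 knockout libraries exceeded every wild-type library in 3.7% of the 13617 genes tested and fell short of every one in 4.65%, so that the genotypes did not overlap in 8.35%. A share of 0.0147% passed a false discovery rate (FDR) of 0.05 in edgeR's quasi-likelihood test. Klk1b22 entered the fit only through its counts in the knockout. Of the other members Klk1, Klk1b11 and Klk1b24 passed the filter on low counts, and Klk1b1, Klk1b16 and Klk1b21 did not.

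**Figure D1:**
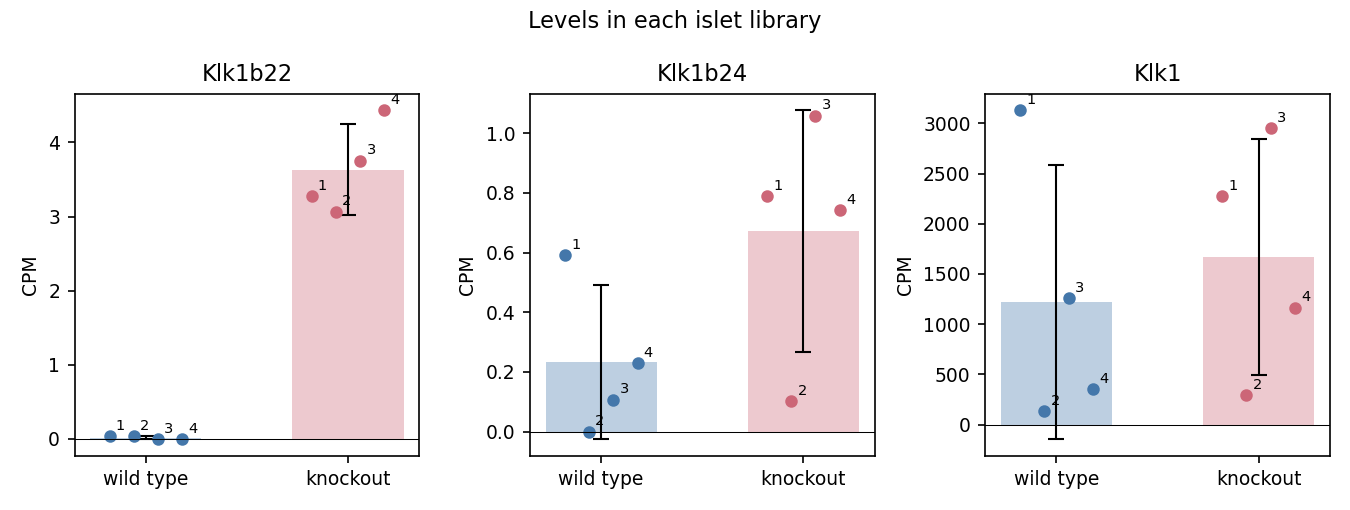
CPM of Klk1b22, Klk1b24 and Klk1 in each library (points, numbered by replicate), with bars for the mean and whiskers for the SD of 4 libraries. Klk1b22 lies between 3.07 and 4.44 CPM in the knockout libraries and at or below 0.0433 CPM in wild type, while the genotypes overlap for Klk1b24 and Klk1.

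Klk1, the tissue kallikrein gene, was by far the most abundant member. It had 96058, 4483, 36423 and 12686 estimated counts in wild-type libraries 1 to 4, and 38699, 9150, 66788 and 36258 in the knockout replicates. Its CPM ran from 135 to 3132 in wild type and from 298 to 2950 in knockout. The genotypes overlapped over nearly the whole range, and the high and low libraries of both groups were those rich and poor in acinar RNA. The log2 fold change of knockout over wild type was 0.45 ± 1.11 (SE). Leaving out a library with the highest Klk1 of its genotype changed it to 1.51 (wild-type replicate 1) or 0.024 (knockout replicate 3). With the acinar share as a covariate its sign turned, to -0.32.

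Set against the acinar genes, Klk1 varied little. It had 8.93, 8.89, 8.67 and 8.84 counts per 1000 acinar counts in wild-type libraries 1 to 4, and 8.33, 7.44, 7.51 and 7.37 in knockout libraries 1 to 4. The order of the 8 libraries by Klk1 CPM and by acinar share never differed by more than 1 place. The ratio was 8.83 ± 0.115 in wild type and 7.66 ± 0.451 in knockout (SD, n = 4 each), and all 4 knockout libraries lay below all 4 wild-type libraries. Of the 36 acinar genes scaled in the same way, 5.56% lay lower in all knockout libraries than in all wild-type libraries and 2.78% higher. This ratio was looked at after the values were seen.

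Klk1b24 and Klk1b11 also had their high values in libraries rich in acinar RNA. Klk1b24 had 18.2, 0, 3.09 and 8.21 counts in wild-type libraries 1 to 4, and 13.4, 3.14, 24.0 and 23.1 in the knockout replicates. Its level was 0.232 ± 0.258 CPM in wild-type islets against 0.673 ± 0.405 CPM in knockout islets (n = 4 each), and 3 wild-type libraries lay above the lowest knockout library. Its log2 fold change was 1.50 ± 0.87 (SE). That value fell to 0.77 once the acinar share entered the fit, and it was 2.48 without wild-type replicate 1. Klk1b11 had 72.0, 2.01, 22.3 and 14.1 counts in wild type and 35.1, 0, 10.1 and 44.6 in knockout, with a log2 fold change of 0.11 ± 1.22 that was -0.47 when knockout replicate 1 was left out and 1.24 when wild-type replicate 1 was. The acinar covariate turned it to -0.62, and limma-voom gave -0.51. Knockout replicate 3, the library richest in acinar RNA, was low for Klk1b11, at 0.446 CPM against 2.35 CPM in wild-type replicate 1.

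The remaining members were near the limit of detection. Klk1b1 had 6.55 counts in wild-type replicate 1, 1.67 and 3.36 in knockout replicates 1 and 3, and 0 in the other libraries. Klk1b21 had 3.89 and 6.22 counts in wild-type replicates 1 and 3 and 2.21 in knockout replicate 1. Klk1b16, the gamma-renin gene, had 1.08 counts in wild-type replicate 1 and 1.06 in knockout replicate 1. At these counts no difference between genotypes was detectable. Every library with a count of these 3 genes had an acinar share of at least 14.3%. Knockout replicate 4, with a share of 17.5%, had 0 counts of all 3. The paralogs were chosen for following exocrine RNA, so this pattern was built into the choice.

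**Figure D2:**
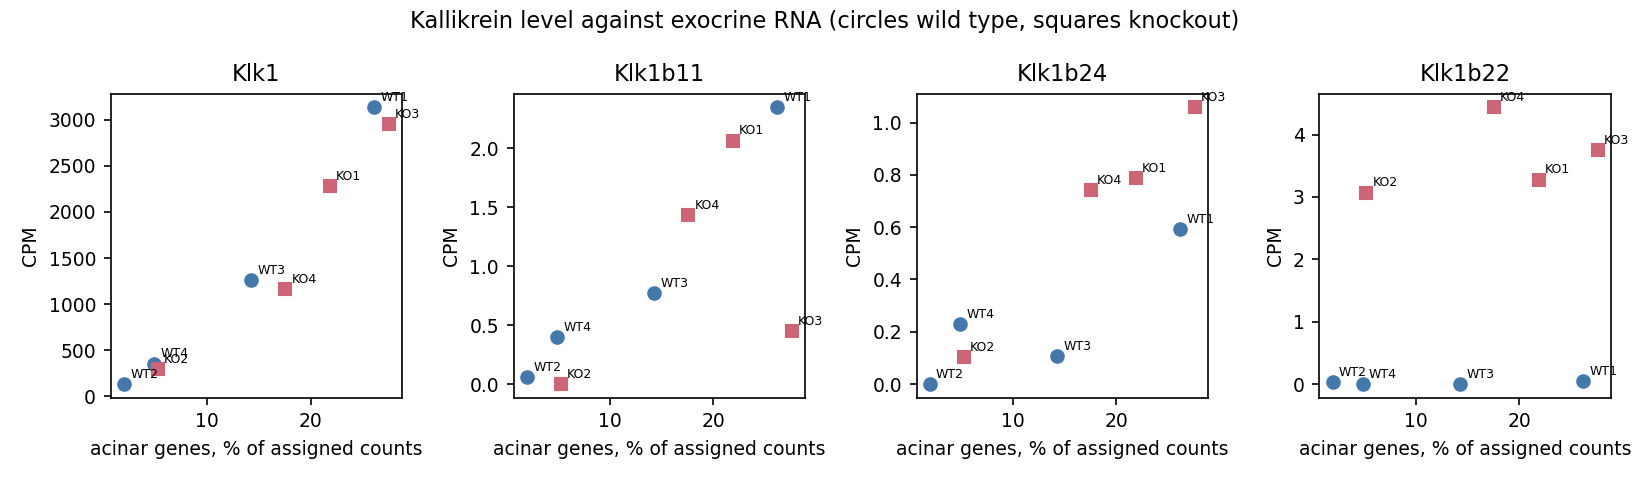
CPM of Klk1, Klk1b11, Klk1b24 and Klk1b22 (vertical axes) against the share of assigned counts on 36 acinar genes (horizontal axes), with circles for wild-type and squares for knockout libraries. Klk1 rises with the acinar share in both genotypes, whereas Klk1b22 is 3.07 CPM in knockout replicate 2 at an acinar share of 5.28% and 3.75 CPM in knockout replicate 3 at 27.5%.

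Klk1b22 did not scale with Klk1 from library to library. Per 1000 Klk1 counts, Klk1b22 had 1.44, 10.3, 1.27 and 3.81 counts in knockout replicates 1 to 4. By CPM knockout replicate 2 was the lowest knockout library for both genes, at 298 CPM for Klk1 and 3.07 CPM for Klk1b22. In wild-type replicate 1, the library with the most Klk1 counts of all, Klk1b22 had 0.0138 counts per 1000 Klk1 counts. The highest knockout CPM was 1.45 times the lowest for Klk1b22, 9.89 times for Klk1 and 10.3 times for Klk1b24. Across the 8 libraries the Pearson correlation of log2 CPM with Klk1 was 0.30 for Klk1b22, 0.86 for Klk1b24 and 0.81 for Klk1b11. These values describe 8 points that share library composition. Klk1b22 was chosen for its knockout counts and the paralogs for following exocrine RNA, so this contrast was built into the choice.

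**Figure D3:**
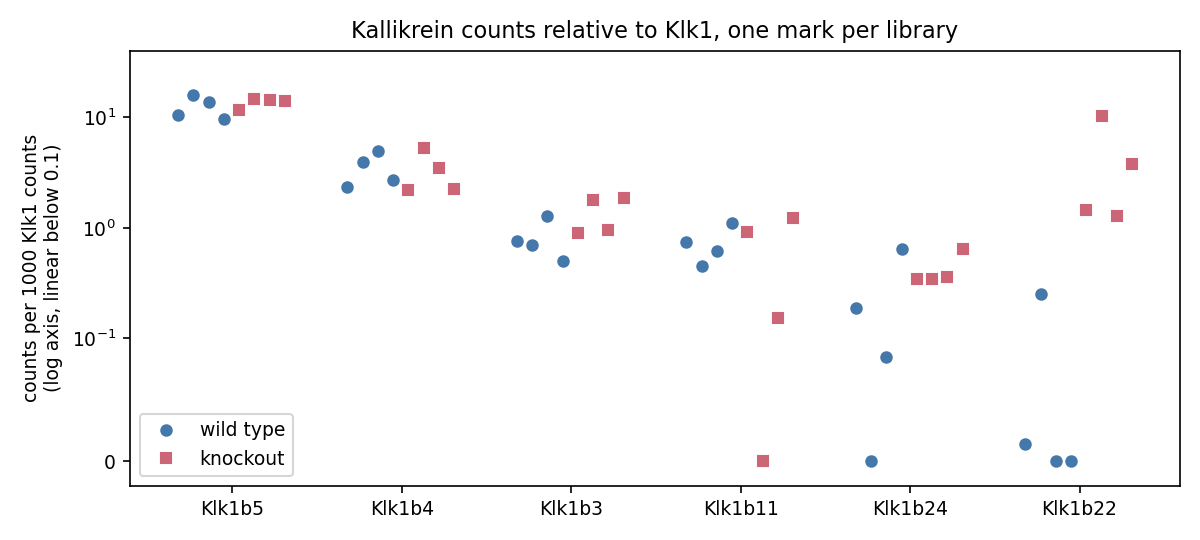
Counts of 6 glandular kallikreins per 1000 Klk1 counts, with 1 mark per library (circles wild type, squares knockout) on a log axis that is linear below 0.1. Klk1b5 stays between 9.74 and 15.9 in all libraries, while Klk1b22 is at most 0.250 in wild type and between 1.27 and 10.3 in knockout.

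Scaled by transcript length as well, the order of the 14 family genes with a GENCODE coding transcript was led by Klk1 in both genotypes, at 1279 ± 1430 CPM per kb in wild type and 1753 ± 1232 in knockout (SD, n = 4 each). Klk1b5 followed at 9.94 ± 10.2 and 16.2 ± 11.6 CPM per kb, then Klk1b4 at 4.47 ± 4.17 and 5.81 ± 4.61. In knockout Klk1b22 came next at 4.25 ± 0.711 CPM per kb, ahead of Klk1b3 at 2.13 ± 1.09. In wild type Klk1b22 was 12 of 14, at 0.0225 ± 0.0264 CPM per kb. In wild type, no neighbours below Klk1 in this order differed beyond the SD of the higher one. That SD spans libraries of unequal acinar share, so it does not show how the order held within a library. Klk1b5 lay above Klk1b4 in every wild-type library. In the knockout the libraries of Klk1b5, from 3.14 to 30.6 CPM per kb, and of Klk1b4, from 1.88 to 12.2, overlapped those of Klk1b22, from 3.59 to 5.19. Those of Klk1b3, from 0.605 to 3.18, did not. Klk1 took 96.8 to 98.5% of the family's counts in every library.

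**Figure D4:**
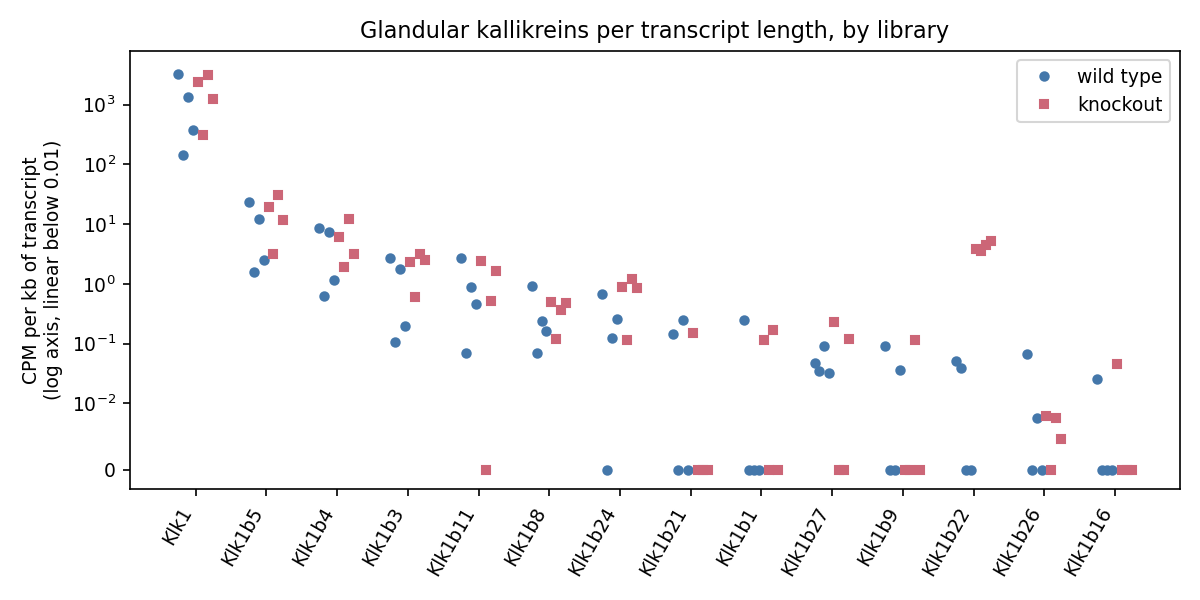
CPM per kb of transcript for 14 glandular kallikreins, ordered by the wild-type mean, with 1 mark per library (circles wild type, squares knockout) on a log axis that is linear below 0.01. Klk1b22 stands near the bottom of the order in wild type and lies between 3.59 and 5.19 in the knockout libraries.

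The other kallikrein rows gave no gene that passed. The table holds 21 of them, of which 14 had any count and 3 were tested: Klk1b3, Klk1b4 and Klk1b5. Their log2 fold changes were 0.85 ± 0.97, 0.37 ± 0.98 and 0.70 ± 1.04 (SE). All 3 were positive, with a median of 0.70 against 0.0098 over all genes tested, 0 passed FDR 0.05 with edgeR, DESeq2, limma-voom or limma-trend (the last on the authors' RPM), and 0 had an unadjusted p under 0.05. Once the acinar share entered the fit the median was -0.061, with Klk1b3 at 0.31, Klk1b5 at -0.061 and Klk1b4 at -0.28. Leaving out wild-type replicate 1 gave a median of 1.56, and leaving out knockout replicate 3 gave 0.18. Klk1b3 had 73.0, 3.15, 46.3 and 6.30 counts in wild-type libraries 1 to 4, and 34.6, 16.5, 63.9 and 68.0 in knockout, and was lowest in the 3 libraries poorest in acinar RNA. Klk1b5, 95.1% identical to Klk1 in coding sequence, was the most abundant paralog, with 1690 counts over the wild-type and 2062 over the knockout libraries. Among the untested rows Klk1b8 had 37.6 and 30.3 counts in wild type and knockout, Klk1b27 had 5.65 and 6.80, Klk1b9 had 3.52 and 2.24, and Klk1b26, which encodes a prorenin-converting enzyme, had 3.14 and 0.635. The pseudogene Klk1b7-ps had 0 counts in wild type and 3.15 and 2.03 in knockout replicates 1 and 4.

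By pattern over the 8 libraries, the tested genes most like Klk1b22 were March6, Sltm, Haus3, Zfp873 and Casd1, with Pearson correlations of log2 CPM between 0.962 and 0.976. March6, a ubiquitin ligase gene, was at 29.5 ± 0.141 CPM in wild-type islets against 37.7 ± 1.41 CPM in knockout islets (n = 4 each). Haus3, a subunit gene of the augmin complex of the mitotic spindle, was at 0.881 ± 0.108 and 1.58 ± 0.197 CPM. Zfp873, a zinc finger gene, was at 1.64 ± 0.0536 and 2.23 ± 0.0891 CPM. Sltm and Casd1 were at 39.9 ± 1.16 and 11.5 ± 0.788 CPM in wild type and at 47.2 ± 0.976 and 16.0 ± 0.670 CPM in knockout. Since these 5 were picked for likeness to a gene chosen on the same contrast, their differences between genotypes are a description without a test. Among the genes most like Klk1, the digestive enzyme and acinar secretory genes Pnlip, Gp2, Clps and Cela1 had correlations of at least 0.997. None of the genes named as most like Klk1b22 or Klk1 was a kallikrein.

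Most of the salivary markers that accompany these kallikreins in the submandibular gland were at 0. Of 18 listed genes 11 had 0 counts in all 8 libraries, among them Smgc, Prol1, Bpifa2 and the Dcpp genes, and Muc19 had 1 count in each of 3 wild-type libraries. The summed level of the list was 3.81 to 9.62 CPM in wild-type islets against 3.91 to 9.59 CPM in knockout islets, and most of it was Egf. Ductal markers summed to 165 to 179 CPM in wild-type islets against 152 to 191 CPM in knockout islets. The genotypes overlapped in both summed levels, and the part of these cells in the Klk1b22 counts was not tested. In bulk islet RNA, fewer cells of a type and less RNA per cell cannot be told apart. Klk1b22 was at 3.28 and 4.44 CPM in the knockout libraries from females and at 3.07 and 3.75 CPM in those from males. Without knockout replicate 2, the library with liver RNA, the difference between genotypes was 3.80 CPM.

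The genes of the kinin pathway were described to see whether the substrates, receptors and degrading enzymes of tissue kallikrein differed. Of 25 listed genes 14 were tested, and 0 passed FDR 0.05 with edgeR, DESeq2, limma-voom or limma-trend, while 4 had an unadjusted p under 0.05 in edgeR, as did 18.7% of all 13617 genes tested. The median log2 fold change was -0.068, with 6 positive and 8 negative values, and it was 0.36 with no filter on low counts. The kininogen gene Kng1 had 0, 3, 1 and 0 counts in wild-type libraries 1 to 4, and 2, 2421, 2 and 1.92 in knockout libraries 1 to 4. Plasma kallikrein, encoded by Klkb1, had 1, 831, 1 and 4 counts in the knockout replicates and at most 8 in wild type. Both genes, and F12 with 247 counts there and 0 elsewhere, were thus high in knockout replicate 2 alone, the library with liver RNA. The receptor gene Bdkrb2 was at 0.648 ± 0.169 CPM in wild-type islets against 0.516 ± 0.0401 CPM in knockout islets (log2 fold change -0.33 ± 0.30, edgeR adjusted p = 0.558), and Bdkrb1 had at most 4 counts in any library.

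The kinin-degrading enzymes gave the smallest p-values of the list. Ece1, an endothelin-converting enzyme that also cuts bradykinin, was at 230 ± 47.1 CPM in wild-type islets against 168 ± 26.6 CPM in knockout islets, giving a log2 fold change of -0.45 ± 0.16 (edgeR adjusted p = 0.193). Without wild-type replicate 1 it passed in edgeR, with an adjusted p of 0.0303, in a fit that called 1313 genes over the table. It was the only call of the kinin pathway list in that fit. Cpd, a carboxypeptidase gene, was at 41.1 ± 2.14 and 47.9 ± 1.45 CPM (log2 fold change 0.22 ± 0.081, adjusted p = 0.203), and every knockout library exceeded every wild-type one. Mme, the neprilysin gene, was at 1.54 ± 0.373 and 2.27 ± 0.466 CPM (0.55 ± 0.24, adjusted p = 0.243). Angiotensin-converting enzyme, encoded by Ace, had a log2 fold change of -0.15 ± 0.13 (adjusted p = 0.524).

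Growth factors and receptors that kallikreins are known to bind or act beside showed no call. Of 19 listed genes 12 were tested, 0 passed FDR 0.05 with any of these 4 tools and 0 had an unadjusted p under 0.05, against 0.0147% and 18.7% of all genes tested in edgeR. The median log2 fold change was 0.22, with 9 of 12 values positive, against 6983 of 13617 over all genes tested. Egf was at 4.52 ± 2.68 CPM in wild-type islets against 6.09 ± 2.67 CPM in knockout islets. The smallest p-values belonged to Serpine2 (log2 fold change 0.42 ± 0.20, edgeR adjusted p = 0.287), Bdnf (0.78 ± 0.45, 0.347) and Egfr, the receptor of epidermal growth factor (1.19 ± 0.67, 0.373). Egfr, which liver also expresses, was at 74.7 CPM in knockout replicate 2 and between 13.6 and 13.8 CPM in the other knockout libraries, and its log2 fold change without that library was 0.099.

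The kallikrein cluster and the targeted gene share chromosome 7, so the genes between them were set beside Klk1b22. In the RefSeq gene order of GRCm38, Klk1b22 lies 42 tested genes from Rpl13a. On one side its nearest tested neighbour was Klk1b11, and on the other Klk1b24. Between Klk1b22 and Rpl13a, leaving out the members, 39 genes were tested, 36 of them no kallikreins. Of these 36, 29 had a negative log2 fold change and 7 a positive one (median -0.24). Of all 13617 genes tested, 6634 were negative and 6983 positive. Over all 39, 0 passed FDR 0.05 in edgeR, limma-voom or limma-trend. In edgeR 13 had an unadjusted p under 0.05, of which 12 were lower. Of all genes tested 18.7% had such a p in either direction, and the share for lower alone was not counted. All 4 knockout libraries lay below all 4 wild-type libraries in 5 of the 39 and above them in 1, against 4.65% and 3.7% of all genes tested. With DESeq2 4 of the 39 were lower: Ap2a1, Emc10, Prr12 and Scaf1. DESeq2 called 517 of all genes. Without wild-type replicate 1 edgeR called 8 of the interval genes, all lower, and 1313 genes over the table.

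The 3 genes of smallest p in the interval all had lower means in knockout. Emc10, a subunit gene of the ER membrane protein complex, was at 50.9 ± 6.60 CPM in wild-type islets against 35.4 ± 1.40 CPM in knockout islets (log2 fold change -0.53 ± 0.11, edgeR adjusted p = 0.116). Scaf1 had -0.55 ± 0.14 and the clathrin adaptor gene Ap2a1 had -0.56 ± 0.15 (adjusted p = 0.144 for each). Among the 36, Bcl2l12 had the only log2 fold change above 1, at 1.01 ± 0.29 (adjusted p = 0.151), and Il4i1 the only one below -1, at -1.28 ± 0.47 (adjusted p = 0.199). Both were named after their values were seen. The nearest tested genes beyond the cluster on each side, Ctu1 and 2410002F23Rik, were at 3.63 and 9.77 CPM in wild type and at 3.53 and 8.04 CPM in knockout. Rpl13a itself had a log2 fold change of -0.097 ± 0.16.

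**Figure D5:**
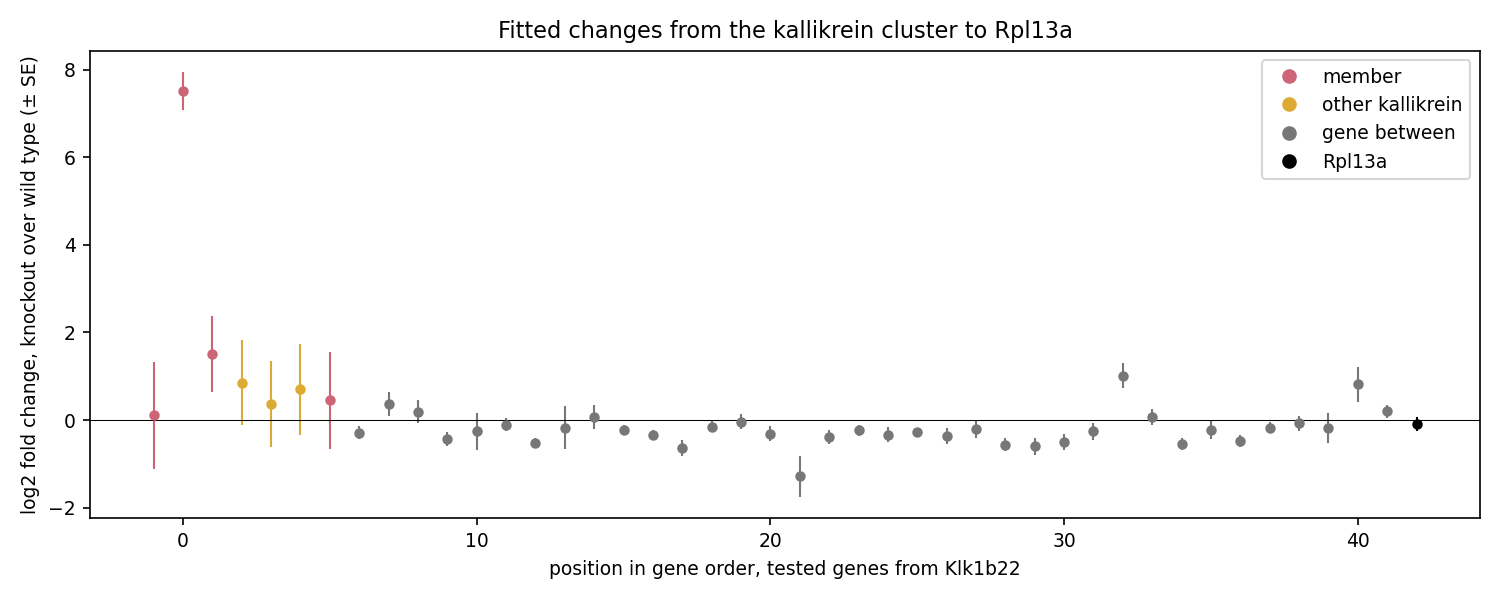
Log2 fold change of knockout over wild type with its SE (vertical axis) for the tested genes from the kallikrein cluster to Rpl13a, by their place in the gene order counted from Klk1b22 (horizontal axis). Klk1b22 stands apart at 0 on the horizontal axis; its fitted value rests on 2.45 counts in wild type and depends on the prior count, while the 36 genes that are no kallikreins have a median of -0.24.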

How the data were processed

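RNA from hand-picked islets was prepared with TRIZOL and made into SeqPlex libraries, per the labels' protocols. The sources used here give neither strandedness nor read length. The submitters' processing notes name STAR 2.4.1, Partek and the build mm9, with no roles. One deposited table gives the authors' estimated counts by gene, of which 9.98 to 12.4% per library lay more than 0.01 from a whole number. Members are printed as deposited, with values below 0.01 written as 0, and counts were rounded to whole numbers for tests. The other deposited table gives the authors' RPM, an alternative here. All 16 columns matched samples by title.

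The fit used edgeR 4.0.16 under R 4.3.3 (TMM scaling, filterByExpr, robust quasi-likelihood test between genotypes, Benjamini-Hochberg adjustment over 13617 genes, FDR 0.05) after a check on simulated data. SE is the log2 fold change over the square root of F, and log2 CPM used a prior count of 2. DESeq2 1.42.0 and limma 3.58.1 were alternatives. No 2 libraries were copies (smallest chi-square per degree of freedom 26.8). Sequences were aligned with Biopython 1.88. Since GRCm38 is not the submitters' mm9, its coordinates are those of the sequences printed only.

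The members and gene lists were chosen with earlier results of these data known. Genes named are all members, every other kallikrein row with any count, the 3 of smallest p in the kinin, growth factor and interval lists, Xist and Ddx3y, and the 5 most correlated with Klk1b22 and with Klk1, less items not reported here; further genes illustrate a role and were picked after their values were seen.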

Additional observations from a re-analysis of the deposited data

Results flagged for a closer look

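In 8 of 62 groups of 4 libraries looked at, 1 library stood far from the other 3. Chance gives about 1 in 20 groups for normally spread values. That rate does not hold for a group with counts in a single library, which is flagged by construction, so the rates are not compared. Among the rare kallikreins this arises where a single library holds any counts: Klk1b1 at 0.213 CPM in wild-type replicate 1, Klk1b16 at 0.0353 CPM in wild-type replicate 1 and 0.0625 CPM in knockout replicate 1, and Klk1b21 at 0.130 CPM in knockout replicate 1, each against 0 in the other 3 libraries of its genotype. Knockout replicate 2 held the highest values of Klkb1, at 27.1 CPM against 0.0442 to 0.129 CPM, and of Egfr, at 74.7 CPM against 13.6 to 13.8 CPM. Knockout replicate 1 was highest for Scaf1, at 25.7 CPM against 18.4 to 19.6 CPM. Wild-type replicate 1 was lowest for Ap2a1, at 25.5 CPM against 40.6 to 42.8 CPM. The groups of Klk1b22 held no such library.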

How the results depend on the processing

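The difference of 3.62 CPM for Klk1b22 was 4.30 CPM with library totals without acinar genes and 1.99 RPM on the authors' scale. It ran from 3.35 to 3.80 CPM when each library was left out. The number of genes past FDR 0.05 was 2, against 48 with no composition factor (37 higher, 11 lower), 517 with DESeq2, and 2 to 1313 over the fits that omit a library, with 1313 reached when wild-type replicate 1 was omitted and 5 when knockout replicate 4 was. Having no composition factor shifted the median of all genes by -0.12 on the log2 scale and that of the interval genes from -0.23 to -0.38, so relative to all genes the interval median stayed near its value. The genes between Klk1b22 and Rpl13a gave 4 calls with DESeq2 and 0 to 8 when each library was left out, and the kinin pathway list gave 0 to 1. The other kallikrein rows gave 0 calls in each of the alternatives run. Without the low-count filter the kinin median was 0.36 instead of -0.068. The median log2 fold change of the other tested members, 0.45, was 0.080 when wild-type replicate 2 was omitted and 1.51 when wild-type replicate 1 was. Adding the acinar share to the fit turned it negative, at -0.32, as did the median of the other kallikrein rows, at -0.061. The causes of these changes were not tested. Whether the replicate numbers pair the samples could not be settled. Deviations of same-numbered libraries correlated at 0.038, 0.21, 0.16 and 0.15 for replicates 1 to 4, so that 1 pair was below 0.1. Wild-type replicates 2, 3 and 4 were each closest to the knockout library of their own number, and wild-type replicate 1 to knockout replicate 3. With the replicate block 2 genes passed, as without it, the median of the other tested members was 0.93 and that of the other kallikrein rows 1.06. Precision is limited by 4 libraries per genotype and by single-digit counts of Klk1b1, Klk1b16 and Klk1b21.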

Other observations

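Apart from Klkb1, with 831 counts in knockout replicate 2, kallikrein-related genes outside the Klk1 family were rare in these libraries. Klk6 had 12 counts in wild-type replicate 1 and 7, 2 and 1 counts in knockout replicates 1, 3 and 4, with 0 in the other 4 libraries. Klk8 had 4 counts over the wild-type and 4 over the knockout libraries. Klk9 and Klk10 had 1 count each and Klk11 had 2, all in wild type. Klk4, Klk5, Klk7, Klk12, Klk13, Klk14 and Klk15 had 0 counts in all 8 libraries, which allows up to 3 counts in a library.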
